A study of Mus musculus with 15 samples.

Results

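The genes described are 10 interferon-inducible GTPases of the mouse, namely the guanylate-binding proteins (GBPs) Gbp2, Gbp3, Gbp5, Gbp6 and Gbp7 and the immunity-related GTPases (IRGs) Irgm1, Irgm2, Igtp, Iigp1 and Tgtp1. They were taken by symbol from a table of 24054 gene symbols, in which all 10 were found, and all 10 were among the 15905 genes tested. The table holds RNA-seq counts from the lungs of 15 female wild-type Balb mice in 3 groups of 5. The saline group was sham-sensitised and received an isotype control antibody, and the OVA group was sensitised to and challenged with ovalbumin and received the same kind of control antibody. The anti-IL-4Ra group was sensitised and challenged in the same way and received an antibody against mouse IL-4Ra, the receptor chain shared by IL-4 and IL-13, at 30 mg/kg. No saline group with the anti-IL-4Ra antibody was analysed here, and the sources used here do not give the ages of the mice.

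GBPs and IRGs are large GTPases that gather on the membranes of vacuoles holding microbes, and on some microbes themselves, and help to break these open or to alert inflammasomes. In mouse cells their genes are induced mainly by interferon gamma, through promoter sites called GAS and ISRE, the latter bound by the transcription factor IRF1, and type I interferon also induces many of them. Among the IRGs, Irgm1, Irgm2 and Igtp are regulators that sit on the cell's own membranes and hold the effector IRGs, such as Iigp1 and Tgtp1, in an inactive state. In asthma models, interferon gamma belongs to the type 1 arm of immunity, whereas IL-4 and IL-13 drive the type 2 arm.

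The start regions of these genes carry the interferon elements in different layouts, and 6 are shown to compare them. RefSeq promoter windows (build GRCm38.p6, 250 bases before to 50 after the start) were found for 8 of the 10 genes, all but Gbp6 and Iigp1. Both strands were searched for an ISRE core, GAAANNGAAA, and a GAS core, TTCNNNGAA. With the first listed window of each gene, the ISRE core occurred for 8 of 8 members, against 3.49% of 27025 genes, and the GAS core for 5 of 8 against 8.47%. Both occurred together for the same 5 of 8 (Gbp5, Gbp7, Irgm2, Igtp and Tgtp1), against 0.514% of all. Gbp3 had a second listed window with neither core, so over all 9 windows the ISRE core was in 8 and the GAS core in 5. Capitals mark both kinds of core in the 100-base stretches below, each of which starts 60 bases before its ISRE core.
Irgm2 (chr11:58214853-58214952, plus strand): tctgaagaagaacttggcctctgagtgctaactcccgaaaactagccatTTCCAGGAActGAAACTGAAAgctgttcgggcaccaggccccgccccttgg
Igtp (chr11:58199462-58199561, plus strand): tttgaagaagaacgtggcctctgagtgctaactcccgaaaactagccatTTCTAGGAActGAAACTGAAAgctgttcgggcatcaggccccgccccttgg
Tgtp1 (chr11:48992284-48992383, minus strand): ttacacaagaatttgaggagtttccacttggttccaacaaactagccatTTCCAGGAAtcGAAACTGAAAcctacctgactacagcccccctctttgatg
Irgm1 (chr11:48871411-48871510, minus strand): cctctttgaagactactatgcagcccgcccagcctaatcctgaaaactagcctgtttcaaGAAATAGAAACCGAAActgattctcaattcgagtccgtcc
Gbp2 (chr3:142620544-142620643, plus strand): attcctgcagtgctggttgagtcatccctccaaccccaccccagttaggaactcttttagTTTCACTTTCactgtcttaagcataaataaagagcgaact
Gbp5 (chr3:142496709-142496808, plus strand): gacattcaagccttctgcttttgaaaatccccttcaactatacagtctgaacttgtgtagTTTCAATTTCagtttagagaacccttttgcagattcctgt
In Irgm2, Igtp and Tgtp1 the GAS core began exactly 11 bases upstream of the ISRE core, with no overlap. In the GENCODE annotation 0 Irgm2 transcripts were found to start in its window, against 1 to 3 for each other member with a window. The Irgm2 and Igtp stretches matched at 96 of 100 positions, and the Irgm2 and Tgtp1 stretches at 52. Irgm1 had overlapping ISRE cores at positions -30 and -24 from its start and no GAS core in its window. Gbp2 had a single ISRE core at -59 and no GAS core, and Gbp5 had its ISRE core at -165 with GAS cores at -245 and -52, outside the stretch shown. A match to these letters is a description of the sequence and not a measurement of binding. In the genome Gbp5, Gbp7, Gbp3, Gbp2b and Gbp2 follow each other on chromosome 3, Gbp6 lies beside Gbp10 and Gbp4 on chromosome 5, and Gm12250 (an IRG gene), Igtp and Irgm2 follow each other on chromosome 11, where Irgm1, Tgtp1 and Tgtp2 also lie.

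Library totals of the authors' expected counts ran from 16774285 to 27570666 in the saline group, from 10042825 to 14706131 in the OVA group and from 12317805 to 16914475 in the anti-IL-4Ra group. Genes that mark lung were present in every group, with no marker of endothelium or of alveolar type 1 or type 2 cells at 0. The share of counts on Rn45s, the ribosomal RNA precursor, lay between 1.19 and 2.88% in saline lungs, 4.31 and 12.4% in OVA lungs, and 1.65 and 12.4% in anti-IL-4Ra lungs. Summed cardiac muscle markers ran from 34.4 to 1959 CPM over all libraries. Their range was 535 to 1959 CPM in saline lungs, 111 to 1741 in OVA lungs and 34.4 to 442 in anti-IL-4Ra lungs. CPM, the usual counts-per-million unit, is a count relative to the library total after scaling by the TMM method, and a value with ± is a mean with its SD (n = 5 libraries).

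Per kilobase of exon, Gbp2 had the highest mean of the 10 and Gbp5 the lowest in each of the 3 groups. In the saline lungs Gbp2 stood at 31.9 ± 2.28 CPM per kilobase (n = 5), Gbp7 at 22.3 ± 3.45, Irgm2 at 21.8 ± 3.17, Igtp at 21.02 ± 6.01 and Gbp3 at 17.6 ± 2.71. A lower tier followed, with Iigp1 at 10.6 ± 2.45 CPM per kilobase, Irgm1 at 10.3 ± 1.36, Gbp6 at 9.68 ± 1.16, Tgtp1 at 6.38 ± 0.911 and Gbp5 at 3.37 ± 0.652. Neighbours in this order overlapped in range from Gbp7 down to Gbp3 and from Iigp1 down to Gbp6, while Gbp2 stood above Gbp7, Gbp3 above Iigp1, Gbp6 above Tgtp1 and Tgtp1 above Gbp5 in every saline library. With anti-IL-4Ra, Iigp1 was at 18.99 ± 10.3 CPM per kilobase and Tgtp1 at 16.1 ± 7.84, levels that overlapped those of Irgm2 (20.98 ± 5.04) and Irgm1 (14.4 ± 3.53). Summed over the 10 genes, levels spanned 538 to 752 CPM (median 583) in saline lungs, 373 to 575 (485) in OVA lungs and 522 to 1089 (717) in anti-IL-4Ra lungs.

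**Figure D1:**
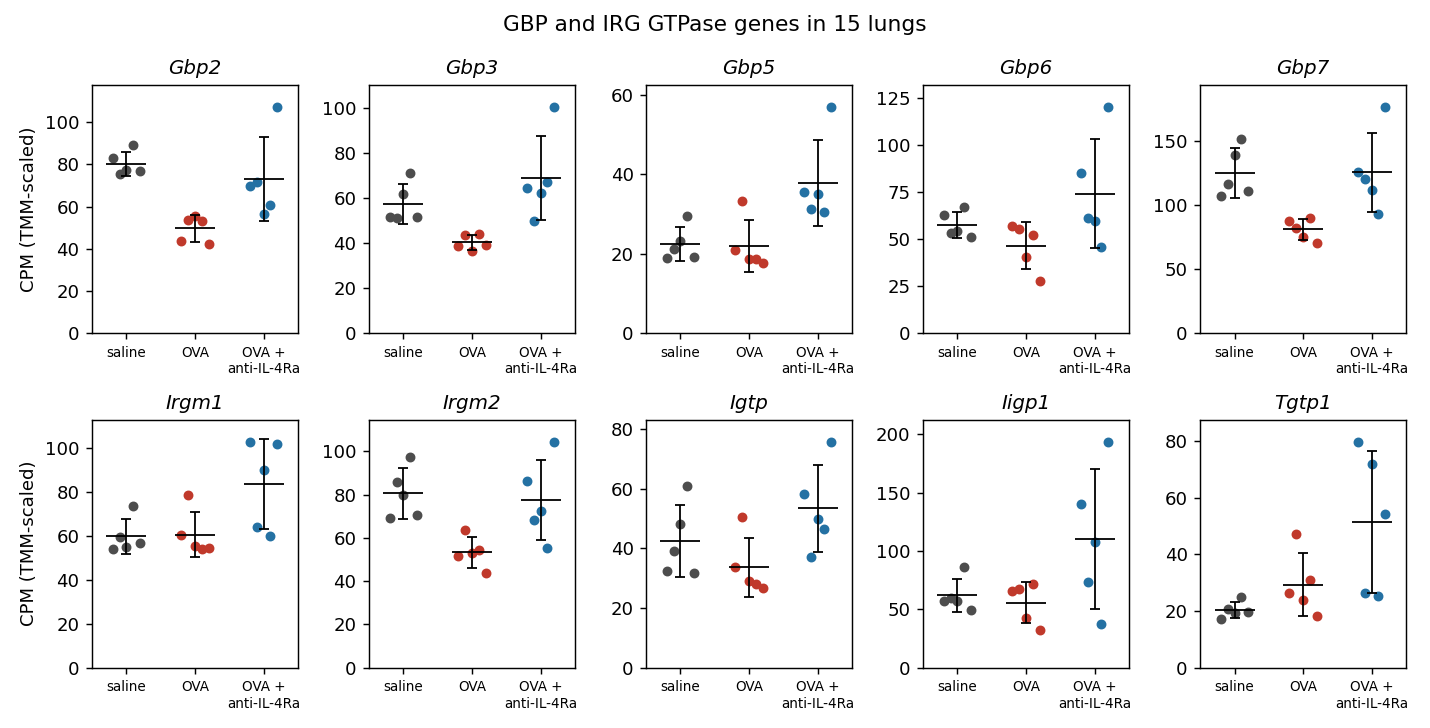
Level of each of the 10 GTPase genes in CPM (vertical axis, starting at 0) in the lungs of the 3 groups; each point is 1 library, ordered by replicate number from left to right, and the bar and whiskers are the mean and SD of 5 libraries. For Gbp2, Gbp3, Gbp7 and Irgm2 every OVA library lies below every saline library, and the anti-IL-4Ra group has the widest spread for most genes, up to 193 CPM for Iigp1.

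The comparison of OVA with saline asks how allergic sensitisation and challenge changed these genes. After OVA, 4 of the 10 were lower (Gbp2, Gbp3, Gbp7 and Irgm2), and 0 were higher. The levels of these 4 fell by 29.8% to 38.2%. Over all 15905 genes tested, 17.8% were called lower and 19.3% higher at an adjusted p under 0.05 (edgeR quasi-likelihood test, Benjamini-Hochberg over all genes), so the share of members called lower was above the background and the share called higher below it. The same 4 were also the members whose groups did not overlap, against 14.5% of all genes with every OVA library below every saline library. The median log2 fold change was -0.32 over the 10 members and 0.02 over all genes tested, and 25.2% of all genes lay at or below the members' median.

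Among the GBPs, Gbp2, which in mouse cells is recruited to vacuoles of Toxoplasma and to bacteria, showed the largest fall. In replicates 1 to 5 its CPM were 83.1, 75.3, 77.1, 89.1 and 77.0 with saline and 43.4, 53.7, 55.5, 53.2 and 42.25 with OVA. The highest OVA library was thus far under the lowest saline library, and the log2 fold change was -0.69 ± 0.15 (SE, adjusted p = 0.00259, edgeR). Gbp7, which is linked in mouse macrophages to assembly of the phagocyte oxidase, had CPM of 107, 117, 139, 152 and 111 with saline and 87.3, 82.3, 74.6, 89.9 and 70.2 with OVA. Its groups did not overlap, and it fell by 0.63 ± 0.15 on the log2 scale (adjusted p = 0.00526, edgeR). Gbp3, a neighbour of both, had CPM of 51.6, 51.3, 61.6, 71.1 and 51.4 with saline and 38.8, 43.65, 36.2, 44.0 and 39.0 with OVA. Saline replicate 4 was its highest library, the groups did not overlap, and the log2 fold change was -0.51 ± 0.16 (adjusted p = 0.0193, edgeR). Without saline replicate 4 Gbp3 lost its call (log2 fold change -0.42, adjusted p = 0.0516).

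Gbp5, which promotes assembly of the NLRP3 inflammasome in mouse macrophages, was at 22.3 ± 4.33 CPM with saline and 21.8 ± 6.55 with OVA. Its log2 fold change was -0.03, with a 95% interval of -0.48 to 0.41, and its groups overlapped. Gbp6 was at 57.7 ± 6.91 and 46.5 ± 12.3 CPM, a log2 fold change of -0.31 (95% interval -0.81 to 0.19), and was not called. Intervals of this width do not show that either gene stayed level.

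Of the IRG regulators, Irgm2 was lower after OVA and Irgm1 was not called. Irgm2 CPM were 69.1, 85.8, 80.05, 97.5 and 70.5 with saline and 51.8, 63.5, 53.1, 54.2 and 43.9 with OVA. Every OVA library was below every saline library, and the log2 fold change was -0.60 ± 0.16 (adjusted p = 0.00796, edgeR). Irgm1, the regulator known for its role in autophagy and lysosome function, had CPM of 54.2, 59.7, 55.1, 73.5 and 56.8 with saline and 60.4, 78.5, 55.3, 54.2 and 54.6 with OVA. Its groups overlapped almost fully, at a log2 fold change of 0.02 (95% interval -0.33 to 0.36). Igtp, a further regulator, was at 42.5 ± 12.2 CPM with saline and 33.6 ± 9.75 with OVA (log2 fold change -0.34, 95% interval -0.82 to 0.14, not called).

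The effectors Iigp1 and Tgtp1 were not called. Iigp1, which coats and disrupts the vacuole of Toxoplasma, was at 61.9 ± 14.3 CPM with saline and 55.8 ± 17.3 with OVA (log2 fold change -0.15, 95% interval -0.86 to 0.56). Tgtp1 was at 20.5 ± 2.92 and 29.4 ± 11 CPM, a log2 fold change of 0.52 (95% interval -0.13 to 1.18), the highest of the 10. That value rests on how reads were divided between Tgtp1 and its near-identical copy Tgtp2, and for the sum of both it was -0.13.

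In whole-lung RNA a lower level can come from fewer cells of a type or from less RNA per cell, which cannot be told apart here. Beside the lower GTPases, 11 of 12 endothelial markers, 7 of 8 alveolar type 1 markers and 5 of 9 natural killer cell markers were called lower with OVA. Summed endothelial markers were at 6723 to 9079 CPM with saline and 2382 to 5095 with OVA, and summed natural killer markers at 55.0 to 99.6 and 28.8 to 52.6. Markers of B cells (8 of 8) and T cells (9 of 11) were called higher. Summed alveolar macrophage markers were at 506 to 1365 CPM with saline and 1666 to 5166 with OVA, with 3 of 9 called higher and 3 lower; Chil3 alone went from a mean of 84.6 to 2629 CPM. The Rn45s shares of these groups did not overlap either. With the Rn45s share as a covariate 0 of 10 members were called, with log2 fold changes of -0.32 for Gbp2, -0.31 for Gbp3, -0.25 for Gbp7 and -0.30 for Irgm2 (adjusted p = 0.244, 0.382, 0.382 and 0.366, edgeR), and the calls over all genes went from 5898 to 752. The part of cell composition in these falls was not tested.

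**Figure D2:**
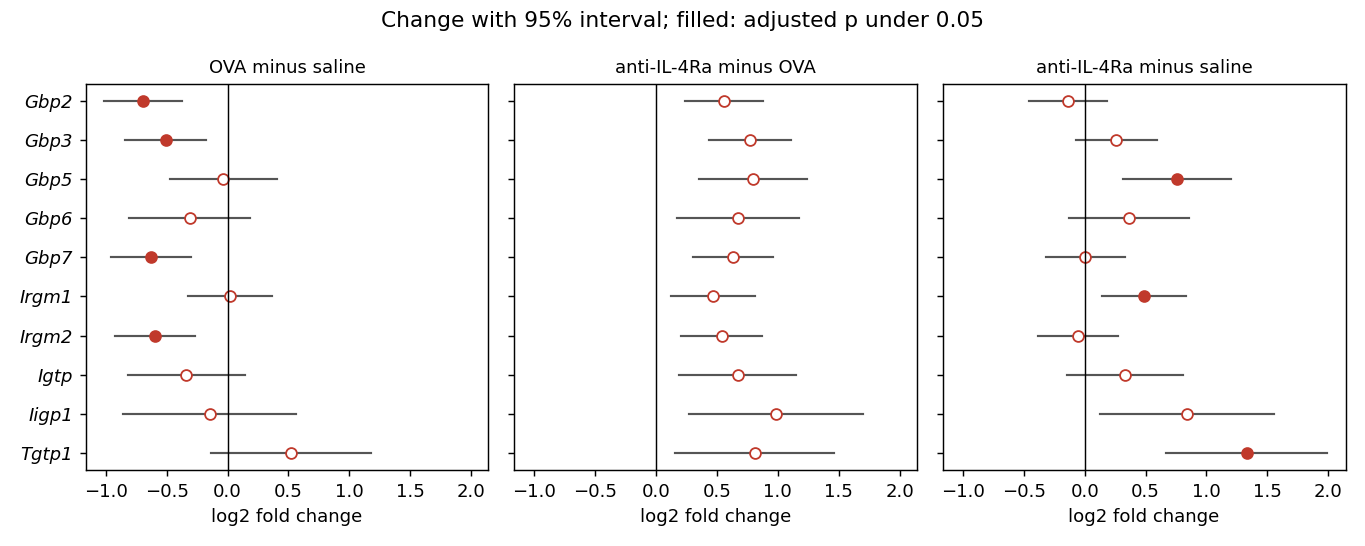
Log2 fold change (horizontal axis) of each gene in the 3 comparisons, with its 95% interval from the edgeR fit; filled points have an adjusted p under 0.05 over all genes tested. In the comparison of anti-IL-4Ra with OVA all 10 intervals lie above 0 although no point is filled, and the comparison with saline splits the genes into Gbp5, Irgm1 and Tgtp1, called higher, and the remaining 7. The call of Tgtp1 is lost when it is summed with its near-identical copy Tgtp2 (0.68 ± 0.31, adjusted p = 0.118).

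The comparison of anti-IL-4Ra with OVA asks what blocking IL-4 and IL-13 signalling did to these genes in challenged lungs. All 10 had higher mean levels with the antibody, by 38.2% (Irgm1) to 97.9% (Iigp1), yet 0 of 10 passed the adjusted threshold in edgeR. Few genes of any kind did: 0.138% of the 15905 were called higher (22 genes) and 0.163% lower (26 genes). At an unadjusted p under 0.05 all 10 members were higher, against 2.77% of all genes. The members' median log2 fold change was 0.67, where the median over all genes was -0.002 and 1.68% of genes lay at or above 0.67. The members varied together from animal to animal (below), so these 10 values are not 10 independent observations. They were also chosen with earlier results of these data known. The comparison with 2.77% of all genes is therefore a description and not a test of the set.

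Gbp3, Gbp7 and Gbp2 separated the groups, with every anti-IL-4Ra library above every OVA library, as was so for 0.509% of all genes. In replicates 1 to 5 of the anti-IL-4Ra group Gbp3 CPM were 64.5, 49.9, 62.3, 67.0 and 100.1. Its log2 fold change over OVA was 0.77 ± 0.16, with an adjusted p of 0.0558 in edgeR, the closest of the 10 to the threshold. Gbp7 CPM were 125.9, 120.1, 111, 93.2 and 176 (log2 fold change 0.63 ± 0.15, adjusted p = 0.142, edgeR). Gbp2 CPM were 69.7, 71.55, 56.3, 60.6 and 107 (log2 fold change 0.56 ± 0.15, adjusted p = 0.244, edgeR). In all of these replicate 5 was the highest library by a wide margin, and for Gbp2 the lowest treated library was less than 1 CPM above the highest OVA library.

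Gbp5, at 35.5, 31.2, 35.0, 30.5 and 56.75 CPM, overlapped the OVA group through OVA replicate 2, at 33.3 CPM (log2 fold change 0.79 ± 0.21, adjusted p = 0.214, edgeR). The widest spread was in the effectors. Iigp1 was at 140.5, 73.8, 108, 37.6 and 193 CPM with anti-IL-4Ra and at 65.6, 67.2, 42.5, 71.5 and 32.3 with OVA. Replicate 4 was thus inside the OVA range and replicate 5 far above it, and the log2 fold change was 0.98 ± 0.34 (adjusted p = 0.522, edgeR). For the regulators and Gbp6 the log2 fold changes were 0.47 ± 0.16 (Irgm1), 0.54 ± 0.16 (Irgm2), 0.67 ± 0.23 (Igtp) and 0.67 ± 0.24 (Gbp6), and for Tgtp1 0.81 ± 0.31, all with overlapping groups.

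Anti-IL-4Ra replicate 5 was the highest of its group for 8 of 10 members and replicate 4 the lowest for 7 of 10. The same libraries were at the ends of the Rn45s share, with 1.65% in replicate 5 and 12.4% in replicate 4, and OVA replicate 5, the lowest of its group for 8 of 10, had 12.4%. Saline replicate 1, the lowest of its group for 5 of 10, had the highest share of its group, at 2.88%. Some other libraries did not keep to that order. OVA replicate 2, the highest of its group for 5 of 10, had 8.47%, and saline replicate 4, the highest for 10 of 10, had 1.73%. Anti-IL-4Ra replicate 1 was the highest for 2 of 10 at 9.80%, and replicate 2 the lowest for 2 of 10 at 3.10%. With the Rn45s share as a covariate the median of the 10 log2 fold changes was 0.62 and all 10 had an unadjusted p under 0.05. Without anti-IL-4Ra replicate 5 the median was 0.49 and 9 of 10 did. DESeq2 called 3 members (Gbp3, Gbp5 and Gbp7, adjusted p = 0.00184, 0.0327 and 0.0203), limma-voom called 0, and leaving out single libraries gave 0 or 1.

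The comparison of anti-IL-4Ra with saline asks how far the treated lungs differed from unchallenged ones. With anti-IL-4Ra, 3 of 10 members were higher than in saline lungs (Gbp5, Irgm1 and Tgtp1) and 0 lower, where 13.9% of all genes were called higher and 12.7% lower. Gbp5 was at 37.8 ± 10.8 CPM against 22.3 ± 4.33, and every treated library was above every saline library. Its log2 fold change was 0.76 ± 0.21 (adjusted p = 0.0147, edgeR). Tgtp1 was at 79.6, 26.5, 71.8, 25.2 and 54.2 CPM with anti-IL-4Ra and at 17.1, 20.9, 19.5, 25.05 and 19.7 with saline. For Tgtp1 alone the groups did not overlap, by a margin of under 1 CPM between the lowest treated and the highest saline library, and the log2 fold change was 1.33 ± 0.31 (adjusted p = 0.00651, edgeR). The call rests on how reads were divided between Tgtp1 and Tgtp2, because for the sum of both copies the log2 fold change was 0.68 ± 0.31 (adjusted p = 0.118, edgeR), which leaves 2 of 10 members called. Such a separation was seen for 9.53% of all genes.

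Irgm1 was at 103, 63.9, 90.1, 60.2 and 101.9 CPM with anti-IL-4Ra, overlapping the saline group through saline replicate 4. It was called higher (log2 fold change 0.48 ± 0.16, adjusted p = 0.0386, edgeR), but remained called in only 11 of 24 alternative analyses, and its adjusted p without anti-IL-4Ra replicate 1 was 0.127. Iigp1 was not called (log2 fold change 0.84, 95% interval 0.12 to 1.55, adjusted p = 0.0765, edgeR), and passed without anti-IL-4Ra replicate 4 (1.03, adjusted p = 0.0144). The genes that were lower after OVA stood near their saline levels, at log2 fold changes against saline of -0.14 for Gbp2 (95% interval -0.46 to 0.18), 0.26 for Gbp3 (-0.07 to 0.59), 0.004 for Gbp7 (-0.32 to 0.33) and -0.06 for Irgm2 (-0.39 to 0.27). Without anti-IL-4Ra replicate 5 Gbp2 was called lower than saline (-0.32, adjusted p = 0.0495). With the Rn45s share as a covariate 0 of 10 were called, at 0.99 for Gbp5, 0.54 for Irgm1 and 1.22 for Tgtp1 (adjusted p = 0.0584, 0.208 and 0.147, edgeR).

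The comparisons share groups of libraries, so their values are set side by side only. Against saline, OVA and anti-IL-4Ra lungs had log2 fold changes of -0.69 and -0.14 for Gbp2, -0.51 and 0.26 for Gbp3, -0.63 and 0.004 for Gbp7, and -0.60 and -0.06 for Irgm2. For Gbp5 they were -0.03 and 0.76, for Irgm1 0.02 and 0.48, and for Tgtp1 0.52 and 1.33.

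Ratios between members within a library do not depend on how totals are scaled, and they showed that the mix of GTPase transcripts differed between saline lungs and both OVA groups. All 45 pairs were compared in each of the 3 comparisons by two-sided exact permutation tests, whose smallest possible p is 0.00794, with adjustment over the 135 tests. The adjusted p was 0.0357 for 17 of 45 pairs between OVA and saline and for 13 of 45 between anti-IL-4Ra and saline, and 0 of 45 passed between anti-IL-4Ra and OVA, where 0 had an unadjusted p under 0.05. Of these, 8 and 5 pairs held Tgtp1, whose level rests on the division of reads with Tgtp2, and without it 9 and 8 of 36 pairs passed. A further look was taken at 3 pairs, chosen after their values were seen.

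Irgm2 exceeded Irgm1 in every saline library, with a mean log2 ratio of Irgm1 to Irgm2 of -0.43 ± 0.10 (SD, n = 5, range -0.54 to -0.31). With OVA the ratio was 0.18 ± 0.14 (range -0.002 to 0.31), higher by 0.61 (exact permutation p = 0.00794, adjusted 0.0357). With anti-IL-4Ra it was 0.11 ± 0.17 (range -0.10 to 0.31), again above every saline library and within 0.07 of the OVA mean (exact permutation p = 0.468 against OVA). The log2 ratio of Gbp2 to Gbp5 was 1.86 ± 0.21 with saline, 1.22 ± 0.36 with OVA and 0.95 ± 0.18 with anti-IL-4Ra, with no OVA or anti-IL-4Ra library as high as the lowest saline library. That of Gbp2 to Gbp7 was -0.63 ± 0.19, -0.71 ± 0.21 and -0.78 ± 0.14, with overlapping ranges (exact permutation p = 0.54 for OVA against saline).

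**Figure D3:**
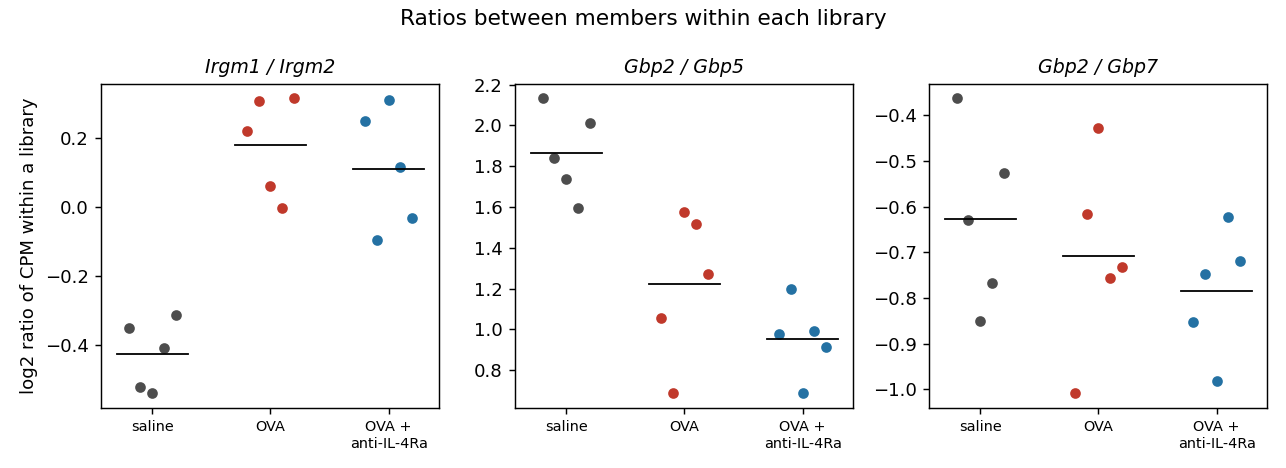
Log2 ratio of CPM between pairs of GTPase genes within each library (vertical axis, scaled separately in each panel) in the 3 groups; points are libraries and bars are means of 5. Irgm1 to Irgm2 is above and Gbp2 to Gbp5 below the saline range in all 10 OVA and anti-IL-4Ra libraries, while Gbp2 to Gbp7 overlaps among the groups.

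Some members are hard to count apart from close copies, because the authors' counting shares reads that match several genes by an estimate. Of the 50-base words in Tgtp1's transcripts 79.4% also occur in Tgtp2, and 73.3% of those in Gbp10 occur in Gbp6. Gbp6 shared 70.7% of its words with other genes, 45.9% with Gbp10 and 65% with Gm43302, a GENCODE gene model that overlaps both on the same strand and was not analysed here. In GENCODE the Irgm2 model also overlaps Igtp, and Tgtp1 overlaps Gm12185. The other 8 members shared from 0.31% (Irgm1) to 12.7% (Gbp7) of their words with any other gene. Tgtp1 took 21.4 to 29.9% of the summed level of Tgtp1 and Tgtp2 in saline lungs, 32.5 to 42.9% in OVA lungs and 32.7 to 44.3% in anti-IL-4Ra lungs. It was thus higher in every OVA and anti-IL-4Ra library than in any saline library (exact permutation p = 0.00794 for each against saline, the smallest possible, and 0.929 between the OVA groups). The sum of both copies was at 84.3 ± 23.4 CPM with saline, 77.1 ± 23.8 with OVA and 135 ± 62.7 with anti-IL-4Ra. Gbp6 took 63.3 to 71.7% of the sum with Gbp10 in every library, and none of the 3 comparisons of that share passed (exact permutation p = 0.595, 0.929 and 0.643). That share does not settle the count of Gbp6, since how the counting treated reads that match Gm43302 is not known.

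**Figure D4:**
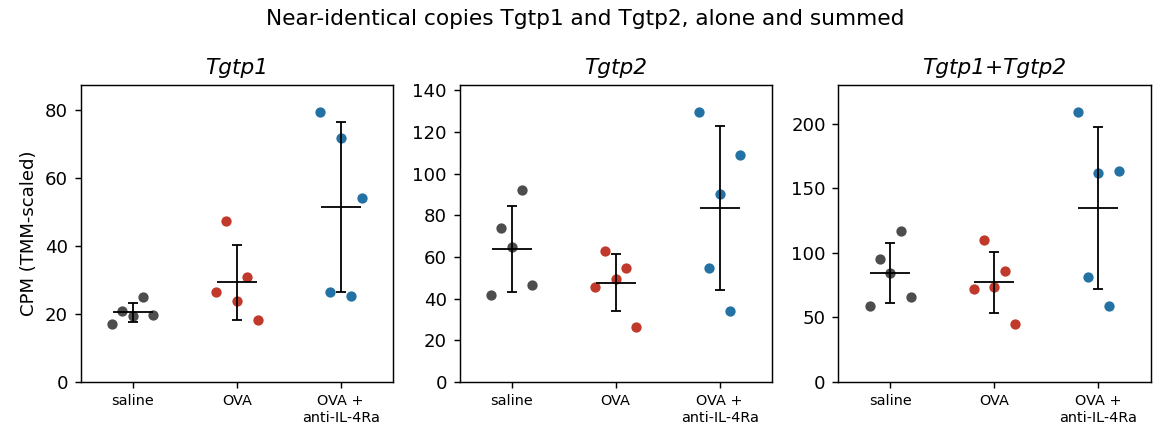
CPM of Tgtp1, of its near-identical copy Tgtp2 and of their sum (vertical axes, starting at 0) in the 3 groups; points are libraries in replicate order, bars and whiskers are mean and SD of 5. Tgtp1 alone has a saline group at 17.1 to 25.05 CPM under every anti-IL-4Ra library, while Tgtp2 and the sum overlap among all groups.

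Within groups the members varied together from animal to animal. After subtraction of group means, the correlation of log2 CPM over the 15 libraries was 0.22 to 0.94 among the 45 pairs (median 0.71), as a description with no test, since all points share library depth and scaling. Saline replicate 4 was the highest of its group for 10 of 10 members and OVA replicate 2 for 5 of 10. The 5 genes outside the list whose level was most like the members' mean were Gbp2b (r = 0.89) and Gbp10 (0.88), both GBPs, Klrk1 (0.88), which encodes the activating receptor NKG2D, Siglech (0.86), a marker of plasmacytoid dendritic cells, and 4921511I17Rik (0.86), over the 15 libraries. Without anti-IL-4Ra replicate 5 their r were 0.82 to 0.83.

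Other genes of the same families were mostly not called. Of 20 further GBP, IRG and GVIN genes tested, 0 were called between the OVA groups. There 18 of the 20 had log2 fold changes above 0, with a median of 0.16, against 0.67 for the 10 members. At an unadjusted p under 0.05 (edgeR) 5 of the 20 were higher and 0 lower. Against saline, 6 of the 20 were called higher and 1 lower with OVA, where 19.3% and 17.8% of all genes were. With anti-IL-4Ra 7 were higher and 0 lower than with saline, where 13.9% and 12.7% of all genes were. The largest was the IRG-like gene Gm4841, a genomic neighbour of Iigp1, at 5.21 CPM with saline, 19.2 with OVA and 19.5 with anti-IL-4Ra (log2 fold change 1.88 ± 0.26 with OVA, adjusted p = 1.05e-04, edgeR). F830016B08Rik, its neighbour and also IRG-like, was at 30.7 and 61.2 CPM (1.00 ± 0.26, adjusted p = 0.00697). Gbp2b, which lies between Gbp3 and Gbp2, was the gene called lower, at 66.3 and 45.8 CPM (-0.53 ± 0.18, adjusted p = 0.0306). Gbp8 rose from 9.50 CPM with saline to 20.9 with anti-IL-4Ra (1.14 ± 0.26, adjusted p = 0.00537).

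In the upstream pathway, Ifngr1, Ifngr2 and Socs1 were among the genes called with OVA, while the transcription factor gene Irf1 was not called. Ifng itself had only 4 to 6 expected counts per saline library, 1 to 7 with OVA and 3 to 14 with anti-IL-4Ra, too few to enter the test. These counts are not scaled to library totals, which were larger in every saline library than in any OVA library, so they do not rank the groups. Of 21 genes tested for interferon gamma, its receptor and signalling, 7 were higher and 2 lower with OVA, where 19.3% and 17.8% of all genes were. With anti-IL-4Ra 7 were higher and 1 lower than with saline, where 13.9% and 12.7% of all genes were. Between the OVA groups 0 of the 21 were called. Of the receptor chains, Ifngr1 fell by 0.53 ± 0.09 on the log2 scale with OVA (159.5 to 110 CPM, adjusted p = 0.000591, edgeR), while Ifngr2 rose by 0.60 ± 0.10 (57.8 to 87.6 CPM, adjusted p = 0.000562). Socs1, the feedback inhibitor of the pathway, rose from 3.58 to 10.4 CPM (1.54 ± 0.27, adjusted p = 0.000712). Irf1 (123 CPM with saline, 113.5 with OVA and 133 with anti-IL-4Ra) was not called in any of the 3 comparisons. Il18, a cytokine that induces interferon gamma, fell from 9.41 to 3.402 CPM with OVA (log2 fold change -1.46 ± 0.33, adjusted p = 0.00313).

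Of 9 type I interferon receptor and signalling genes tested, 1 was higher and 3 lower with OVA (Irf7, at log2 fold change -0.75 ± 0.22, Ifnar2 and Irf9), and 4 were higher with anti-IL-4Ra than with saline. Between the OVA groups 0 of the 9 were called, and 8 of the 9 had log2 fold changes above 0. Among 17 other genes induced by interferon gamma, 3 were higher and 3 lower with OVA. Over all genes tested, 19.3% were called higher and 17.8% lower with OVA, and 13.9% higher with anti-IL-4Ra than with saline. The chemokine Cxcl9 rose from 1.54 to 7.75 CPM (2.34 ± 0.55, adjusted p = 0.00408, edgeR) and Ciita, the regulator of MHC class II genes, from 45.4 to 146 CPM (1.68 ± 0.31, adjusted p = 0.000872). The Fc receptor gene Fcgr1 fell from 8.59 to 3.00 CPM (-1.51 ± 0.21, adjusted p = 0.000145). Fcgr1 was also the single gene of these 17 called between the OVA groups, at 10.8 CPM with anti-IL-4Ra (1.85 ± 0.22, adjusted p = 0.00069). Against saline, 6 of the 17 were higher with anti-IL-4Ra, led by Cxcl9 at 29.4 CPM (4.26 ± 0.57, adjusted p = 0.000176) and Cxcl11 and Cxcl10 (2.69 ± 0.79 and 2.09 ± 0.37). Cxcl11 was scarce, at 0.196 CPM with saline, near the level of 3 counts, and 1.40 with anti-IL-4Ra, with overlapping groups.

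Among 18 partners of these GTPases in defence within the cell, 2 were higher and 6 lower with OVA, where 19.3% and 17.8% of all genes were. With anti-IL-4Ra 2 were higher and 4 lower than with saline, where 13.9% and 12.7% of all genes were. Between the OVA groups 0 of the 18 were called. Aim2, a DNA sensor of an inflammasome, rose from 12.4 to 29.0 CPM with OVA (1.23 ± 0.25, adjusted p = 0.00156, edgeR). The autophagy genes Gabarapl1, Sqstm1 and Map1lc3a fell by 1.00 ± 0.17, 0.78 ± 0.13 and 0.77 ± 0.20 on the log2 scale (adjusted p = 0.0005, 0.000569 and 0.00748). Casp4, the mouse gene for caspase-11, which senses bacterial lipopolysaccharide, rose from 14.4 CPM with saline to 25.5 with anti-IL-4Ra (0.82 ± 0.13, adjusted p = 0.000596).

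Beside the higher GTPase levels with anti-IL-4Ra, summed markers of monocytes and interstitial macrophages were at 700 to 1012 CPM, against 551 to 771 with OVA and 414 to 573 with saline. Of these 11 markers 1, Cx3cr1, was called higher with anti-IL-4Ra than with OVA (1.15 ± 0.19, adjusted p = 0.00897, edgeR). Natural killer markers were at 27.9 to 70.1 CPM with anti-IL-4Ra and 28.8 to 52.6 with OVA, with 0 of 9 called. T cell markers were at 173 to 396 and 151 to 470 CPM, with 0 of 11 called, and endothelial markers at 2443 to 5871 and 2382 to 5095, with 0 of 12 called. Summed alveolar macrophage markers were at 859 to 3247 CPM (median 1273) with anti-IL-4Ra and 1666 to 5166 (3047) with OVA, with 0 of 9 called. Cardiac muscle markers were at 34.4 to 442 CPM with anti-IL-4Ra and 111 to 1741 with OVA, with 0 of 8 called. All 8 had log2 fold changes below 0 (median -2), and 7 had an unadjusted p under 0.05 (edgeR). The part of these cells in the GTPase levels was not tested.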

How the data were processed

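Lung RNA of 15 mice was sequenced after dUTP strand marking, per the labels' protocols, which name both depletion of ribosomal RNA and oligo-dT purification. The authors deposited expected counts per gene symbol, not normalized. Per the submitters' processing notes, Bowtie2 2.1.0 and RSEM 1.2.15 were used. They also name the human build hg38, although the symbols are those of mouse genes. The sources used here do not give the annotation behind the counts, and coordinates above are those of RefSeq. Between 17.0% and 20.0% of a library's values were further than 0.005 from a whole number.

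Expected counts were rounded, genes filtered by filterByExpr, totals scaled by TMM, and all 15 libraries fitted once with the quasi-likelihood test of edgeR 4.0.16 (R 4.3.3), two-sided, for 3 comparisons. A gene was called at a Benjamini-Hochberg adjusted p under 0.05 over the 15905 genes tested. Standard errors came from the F statistic. Sample titles describe biological replicates, and p-values rest on the spread among them. No pair of replicates agreed within sampling noise. Levels per kilobase used the union of exons of GENCODE, which may differ from the authors' gene models. At these totals 3 counts correspond to 0.109 to 0.299 CPM. The fit was tested on simulated counts.

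The members, the context lists and the cell markers were chosen with earlier results of these data known. All 10 members are named in each comparison; from each list, up to 4 called genes with the largest change were eligible, together with Ifng, Ifngr1, Ifngr2, Irf1 and Socs1, a further signalling gene that is not reported here, and other family genes. The alternatives were other scalings, no filter, DESeq2 1.42.0, limma-voom (limma 3.58.1), the compared groups alone, a replicate block, the Rn45s share as a covariate and leaving out each library. Summing near-identical copies (Tgtp1 with Tgtp2 and Gbp6 with Gbp10, the pairs of a member and another listed family gene with at least 50% of either gene's 50-base words shared; Gm43302, which passes that threshold with Gbp6 and Gbp10, was not analysed here) was chosen after seeing the data, in place of a planned grouping by protein identity.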

Additional observations from a re-analysis of the deposited data

Results flagged for a closer look

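Of 30 member and group combinations, 6 held a library far from the other 4 of its group (gap over range above Dixon's limit of 0.71 for 5 samples). Chance flags about 1 in 20 such groups, and members vary together, so the 6 are not independent. OVA replicate 2 stood high for 3 genes, with Gbp5 at 33.32 CPM (next library 20.92), Irgm1 at 78.54 CPM (next 60.4) and Igtp at 50.43 CPM (next 33.65). Saline replicate 4 stood high for Irgm1 at 73.45 CPM (next 59.72) and for Iigp1 at 86.41 CPM (next 59.92). Anti-IL-4Ra replicate 5 stood high for Gbp5 at 56.75 CPM (next 35.45).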

How the results depend on the processing

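With anti-IL-4Ra against OVA all 10 members kept positive changes in each of the 24 alternatives. Their calls rose from 0 to 1 without the filter on low counts (Gbp3) and to 3 with DESeq2, and were 0 to 1 when single libraries were left out (Gbp3 without saline replicate 4 or anti-IL-4Ra replicate 2, Gbp5 without OVA replicate 2, Gbp7 without anti-IL-4Ra replicate 4). Over all genes, calls in that comparison went from 48 to 132 with DESeq2. With the Rn45s share as a covariate, genes called went from 5898 to 752 for OVA against saline and from 4236 to 373 for anti-IL-4Ra against saline, and members called went to 0 and 0; group and Rn45s share are closely tied in these comparisons, and the cause was not tested. Over single members and alternatives, 5 of 240 values for OVA against saline and 16 of 240 for anti-IL-4Ra against saline lost their call, while 2 and, for anti-IL-4Ra against OVA, 8 gained one. No call changed direction. The labels do not say that replicate numbers pair the animals. Deviations of same-numbered libraries correlated at -0.71 to 0.33, and 1 of 15 libraries correlated best with its own number. Such values show no common deviation but cannot settle whether animals were paired. The replicate block gave 4625, 26 and 2891 genes called in the 3 comparisons and 4, 0 and 2 members, with Irgm1 against saline lost (0.47, adjusted p = 0.102, edgeR). The planned grouping of copies by protein identity was not run. With 5 animals a group and the spread seen with anti-IL-4Ra, changes of the size of most members' did not pass adjustment over all genes.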
